A study of Mus musculus with 47 samples.

Results

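The clustered protocadherins are cell-surface proteins of the cadherin superfamily encoded by 3 neighbouring gene arrays on mouse chromosome 18, and 57 of the 20456 genes in the count table belonged to them. Members were taken by symbol, as all rows whose name begins with Pcdha, Pcdhb or Pcdhg followed by a number or by a, b or c and a number. In GRCm38 with the GENCODE M21 annotation, the alpha cluster (14 members) spans 36930184 to 37187661, the beta cluster (22 members) 37264938 to 37524479 and the gamma cluster (21 members) 37661793 to 37841873, all on the plus strand. The annotation lists 58 such genes, and the remaining one, Pcdhgb8, was not analysed here.

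The libraries came from liver, lung and brain of E18.5 embryos on a C57BL/6 background. They were homozygous for Daxx Y130A, a substitution that abolishes binding to Atrx, or for Daxx S226A, which abolishes binding to histone H3.3, or were wild-type littermates of either line. Daxx is a chaperone that places H3.3 in chromatin together with Atrx. Both alleles are germline changes present in every cell, made in C57BL/6N zygotes and backcrossed to C57BL/6J, and each line was compared with the wild types of its own litters. Each of the 12 groups held 4 embryos from 4 litters, except wild-type lung of Y130A litters with 3. The 24 libraries of S226A litters held 15722147 to 26190403 counts and the 23 of Y130A litters 36351738 to 54885020, so litter set and depth cannot be told apart. Hepatocyte, lung epithelium and neuron markers were highest in the liver, lung and brain libraries respectively. Keratin-rich squamous transcripts, which a liver should lack, reached a sum of 1222 CPM (a gene's counts scaled to the size of its library) in wild-type liver of S226A litters replicate 2 and 810.2 CPM in Y130A liver replicate 1.

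Each alpha and gamma transcript joins its own large variable exon, which encodes the extracellular domains, the membrane span and a short tail, to 3 small constant exons shared by the whole cluster. A beta transcript is a single exon. Neurons choose among the promoters of the alternate members so that neighbouring cells carry different combinations, and the proteins bind like to like across membranes, which lets a neuron tell its own branches from those of others. CTCF and cohesin loop the promoters to distant enhancers, and DNA methylation keeps unchosen promoters silent. The 5 C-type members, Pcdhac1, Pcdhac2, Pcdhgc3, Pcdhgc4 and Pcdhgc5, stand at the downstream ends of their clusters and are not part of this choice in most neurons.

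Levels between genes were compared as CPM per kb of exon that no other gene on the same strand shares, which leaves out the constant exons. The median member kept 2479 such bases in the alpha, 3714 in the beta and 2637 in the gamma cluster. Pcdha4 kept only 494, because an annotated read-through gene covers most of its first exon, and its level is therefore uncertain. Pcdhb21 and Pcdhb22 overlap by 455 bases on the same strand, which were left out of both. Genes annotated on the opposite strand cover all of the remaining bases of Pcdhga10 and part of those of 12 other members, most in Pcdha11, Pcdhb12, Pcdhga11 and Pcdhgc3, and these levels are uncertain because the strand setting of the counting is not given in the sources used here. Pcdhga10 still drew 361 to 974 counts in each brain library.

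In wild-type embryos the 3 clusters followed 3 different tissue patterns. The alpha cluster summed to 68.3 ± 8.24 CPM per kb (SD, n = 8) in brain, 3.82 ± 1.14 (n = 7) in lung and 0.226 ± 0.145 (n = 8) in liver. The beta cluster summed to 66.9 ± 4.08 in brain, 18.2 ± 1.52 in lung and 1.83 ± 0.262 in liver. The gamma cluster summed to 129.0 ± 36.8 in lung, 152.6 ± 14.7 in brain and 25.3 ± 2.64 in liver. Lung and brain were closer in S226A litters, at summed levels of 462.5 ± 104.8 and 487.9 ± 27.5 CPM (n = 4 each), than in Y130A litters, at 304.8 ± 13.3 (n = 3) and 422.3 ± 31.7 CPM (n = 4). In liver the 14 alpha members together drew only 4 to 25 counts per library, and 5 of them drew none in any wild-type library, whereas 19 of 21 gamma members had at least 10 counts in every one.

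**Figure D1:**
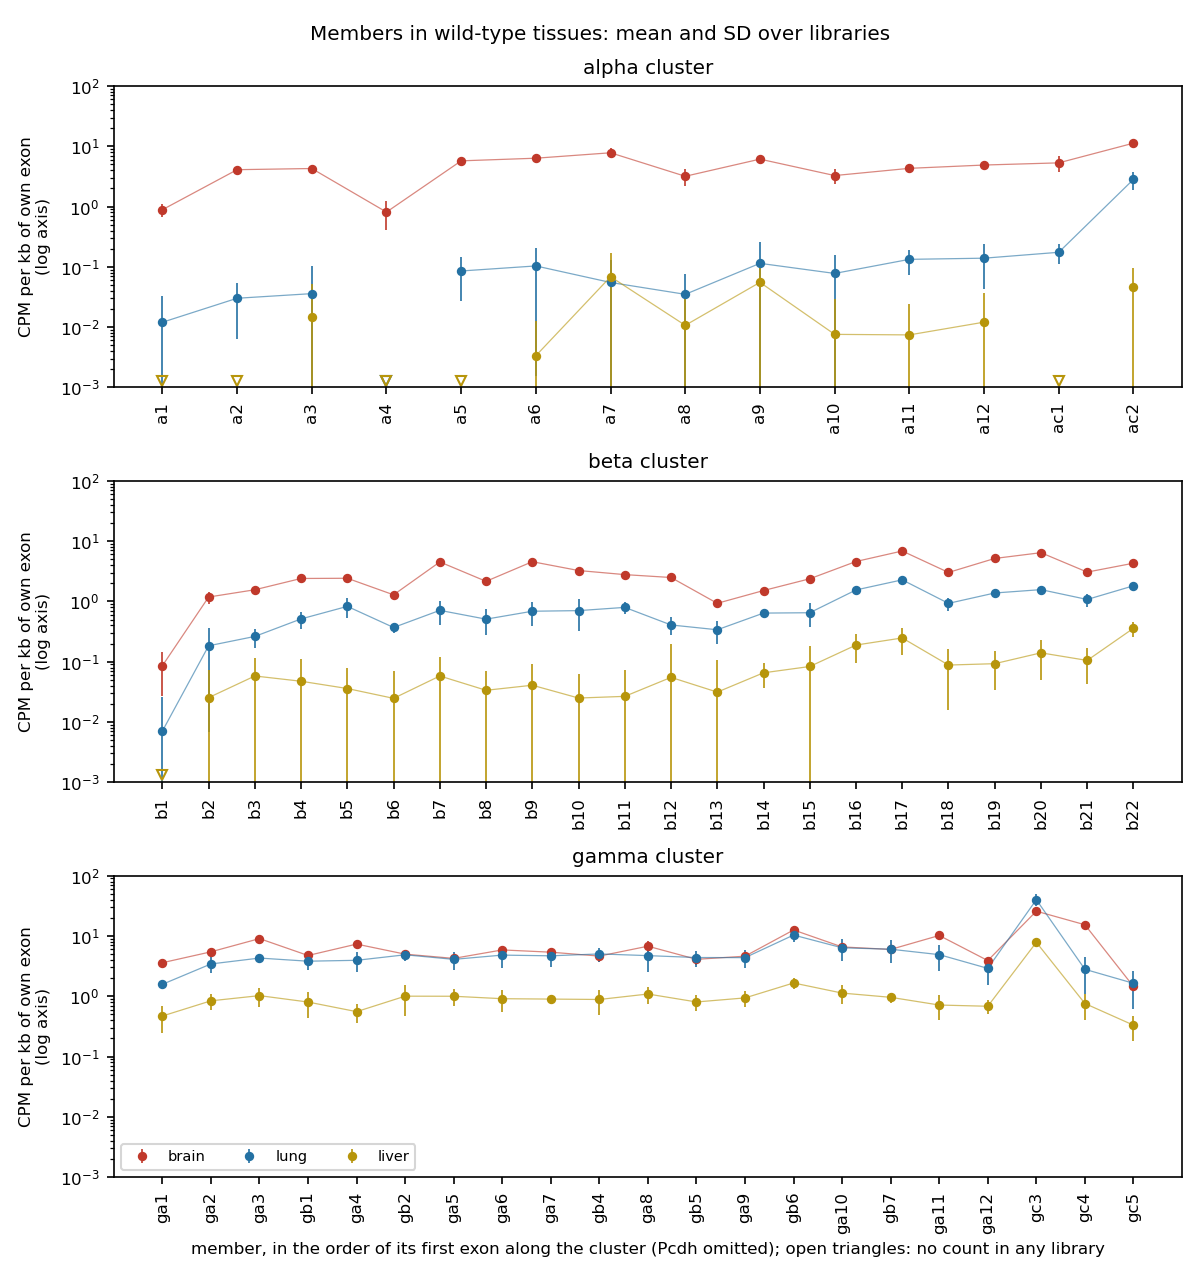
Level of each member in wild-type brain, lung and liver, in CPM per kb of its own exon on a log axis, with members in their order along each cluster. Points are means and bars SDs over 8, 7 and 8 libraries, and an open triangle marks a member without a count in any library. The alpha members stand far higher in brain than in lung or liver, the beta members lie at 3 heights, and most gamma members lie close together in lung and brain.

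Against liver, all 57 members were called higher in brain (edgeR quasi-likelihood test, Benjamini-Hochberg adjusted p below 0.05 over all 16892 genes), where 45.5% of all genes tested were. Of the 57, 28 (all 14 alpha and 14 of 22 beta members) passed the low-count filter only through tissues other than liver, so their count is given as a description and nothing is read from it against the background. The median log2 fold change was 9.04 for the alpha and 5.91 for the beta members, for the same reason a description only, and all gamma members lay between 1.72 and 4.41. The fitted values rest on liver counts at or near 0 for the alpha members and on low liver counts for those 14 beta members. For Pcdhac1 and Pcdha5, without a liver count, brain was at least 93.7-fold and 92.8-fold higher when liver is set to 3 counts per library, and the same bound was 70.5-fold for Pcdha2 and 15.2-fold for Pcdha1. For Pcdha4 and Pcdhb1, both low in brain, it was 2.76-fold and 1.53-fold. In bulk tissue, fewer cells of a type and less RNA per cell cannot be told apart. Summed neuron markers ranged from 7471 to 8950 CPM in wild-type brain, from 36.3 to 59.9 CPM in lung and from 16.5 to 28.5 CPM in liver, and their part in these differences was not tested.

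Within the gamma cluster the difference between brain and liver ran from a log2 fold change of 4.41 ± 0.17 (SE) for Pcdhgc4 to 1.72 ± 0.08 for Pcdhgc3. The smallest beta difference was that of Pcdhb22 at 3.59 ± 0.16, followed by Pcdhb14 at 4.58 ± 0.22 and Pcdhb16 at 4.59 ± 0.21, and the largest were those of Pcdhb10 at 7.18 ± 0.45, Pcdhb2 at 7.12 ± 0.63 and Pcdhb9 at 6.84 ± 0.39. The last 3 drew at most 5, 5 and 12 counts in any wild-type liver and none in several, so their order is uncertain. The other gamma members at the ends of the order were Pcdhga11 (3.84 ± 0.19) and Pcdhga4 (3.71 ± 0.21) at the top and Pcdhgc5 (2.14 ± 0.26) and Pcdhga5 (2.09 ± 0.16) at the bottom.

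Against lung, 47 members were called higher in brain and 1 lower, where 42.8% and 41.3% of all genes were. All 14 alpha and all 22 beta members were among the 47, but 9 alpha members and Pcdhb1 did not pass the filter on lung libraries. The gamma cluster split, with 11 members higher, 9 without a call and Pcdhgc3 lower in brain. Against liver, 50 members were called higher in lung (background 42.3%), including 21 of 21 gamma, 21 of 22 beta and 8 of 14 alpha members. As with brain, the alpha and beta counts are a description only, since the 28 members counted above did not pass the filter on liver libraries. The 7 others were Pcdhb1 and 6 alternate alpha members with few counts in both tissues.

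Pcdhgc3, whose cytoplasmic tail binds the Wnt pathway scaffold Axin1 and which is found well outside the nervous system, was the highest member in all 3 tissues. Its level was 25.8 ± 1.66 CPM per kb in brain (n = 8), 40.0 ± 9.02 in lung (n = 7) and 7.84 ± 1.04 in liver (n = 8). In each tissue its lowest library lay above the highest library of the member next in order, which was Pcdhgc4 in brain and Pcdhgb6 in lung and liver. Lower in the order nearly all neighbours overlapped: of the 56 neighbouring pairs, ranges were apart in 2 pairs in brain and 1 each in lung and liver. Pcdhgc3 was the only member called lower in brain than in lung (log2 fold change -0.59 ± 0.08, adjusted p = 5.1e-09). Fitted on the litter sets alone the difference was -0.78 in S226A and -0.39 in Y130A litters. In the 6 wild-type embryos that gave both tissues, lung exceeded brain by 1.22- to 1.87-fold.

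The other C-type members had other distributions. Pcdhgc4, which developing neurons need for survival, stood second in brain at 15.3 ± 2.01 CPM per kb, but in lung (2.80 ± 1.72) and liver (0.758 ± 0.352) it lay below most alternate gamma members. Its brain to lung difference was the largest of the cluster, with a log2 fold change of 2.70 ± 0.16. Pcdhgc5 was low throughout, at 1.45 ± 0.196 in brain, 1.64 ± 1.02 in lung and 0.332 ± 0.148 in liver. Pcdhac2, which serotonergic axons use to spread apart, held 75.6% ± 10.04 (SD, n = 7) of the alpha counts in lung against 19.3% ± 2.58 (n = 8) in brain. Its level was 2.82 ± 0.961 CPM per kb in lung and 11.3 ± 0.719 in brain, so its brain to lung log2 fold change of 2.07 ± 0.22 was the smallest among alpha members, followed by Pcdhac1 (4.87 ± 0.24) and Pcdha11 (5.13 ± 0.24). At the other end were Pcdha3 (7.45 ± 0.54), Pcdha7 (7.35 ± 0.40) and Pcdha1 (7.26 ± 0.57). These 3 did not pass the filter on lung libraries and drew at most 10, 10 and 2 counts in any wild-type lung, so the size and order of their folds are uncertain. Pcdhac1 itself measured 5.31 ± 1.54 CPM per kb in brain and 0.174 ± 0.0639 in lung, with no count in any wild-type liver library.

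Among alternate members levels were more even in the gamma than in the beta cluster. In brain the highest of the 18 alternate gamma members, Pcdhgb6 at 12.6 ± 1.19 CPM per kb, exceeded the lowest, Pcdhga1 at 3.60 ± 0.431, by 3.49-fold, and Pcdhga11 (10.2 ± 1.18) and Pcdhga3 (9.05 ± 0.811) came next below Pcdhgb6. In lung Pcdhgb6 (10.4 ± 2.49), Pcdhga10 (6.36 ± 2.50) and Pcdhgb7 (6.03 ± 2.48) led and Pcdhga1 (1.58 ± 0.273) was last. Pcdhga10 (1.13 ± 0.387) also followed Pcdhgb6 (1.66 ± 0.327) in liver. In the alpha cluster of brain Pcdhac2 was followed by Pcdha7 (7.80 ± 1.51) and Pcdha6 (6.34 ± 0.742), with Pcdha1 (0.886 ± 0.204) and Pcdha4 (0.810 ± 0.406) lowest. In lung Pcdhac1 and Pcdha12 (0.139 ± 0.0960) followed Pcdhac2.

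Beta levels rose towards the downstream end of the cluster. Across the 22 beta members, which share libraries and are not independent, Spearman's rho of level with order was 0.62 in brain, 0.78 in lung and 0.79 in liver. Pcdhb1, at the upstream end, was the lowest everywhere, at 0.0857 ± 0.0586 CPM per kb in brain and 0.00706 ± 0.0187 in lung, with no count in liver. Brain was led by Pcdhb17 (6.86 ± 0.627), Pcdhb20 (6.43 ± 0.376) and Pcdhb19 (5.16 ± 0.356). Lung was led by Pcdhb17 (2.28 ± 0.347), Pcdhb22 (1.81 ± 0.281) and Pcdhb20 (1.57 ± 0.130), and liver by Pcdhb22 (0.358 ± 0.0986), Pcdhb17 (0.248 ± 0.120) and Pcdhb16 (0.189 ± 0.0953). Pcdhb13 in brain (0.930 ± 0.134), Pcdhb2 in lung (0.183 ± 0.177) and Pcdhb6 in liver (0.0246 ± 0.0455) were the lowest but one. Between lung and brain the rank correlation of levels was 0.88 over 22 beta, 0.72 over 14 alpha and 0.51 over 21 gamma members.

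The mutant livers were compared with wild-type livers of their own litters to ask whether loss of either Daxx interaction altered the clusters. In S226A liver 7 members were called lower, against 5.54% of all genes, and 0 higher, against 6.14%. They were Pcdha7, Pcdhb2, Pcdhb14, Pcdhb16, Pcdhb22, Pcdhga1 and Pcdhga6. The median log2 fold change was -0.52 over the beta and -0.41 over the gamma members, beside -0.01 over all genes. The beta value includes 14 members that did not pass the filter on liver libraries, and the median over beta members of log2(CPM + 1) differed by only -0.12. In S226A liver 20 of 21 gamma members were below 0, where 51.6% of all genes were. Members of a cluster share libraries and are not independent, so such counts by direction or overlap are descriptions only, here and in the other comparisons. Pcdha7 and Pcdhb2 were among the 28 members that did not pass the filter on liver libraries, so the count of 7 is not read as an excess over the background. It was 1 in a fit of the liver libraries, 0 in a fit of the 8 compared libraries and 2 under stringent criteria (adjusted p below 0.01, a log2 fold change beyond 1 and an SE below 1), and ranged from 4 without S226A liver replicate 1 to 13 without wild-type replicate 4.

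Pcdhb22, the last gene of the beta array, had the lowest adjusted p of the 7. It drew 26, 30, 47 and 26 counts in the 4 wild-type livers and 6, 6, 10 and 16 in the 4 S226A livers, so the groups did not overlap. Its level fell from 2.13 ± 0.847 to 0.588 ± 0.346 CPM (SD, n = 4 each), a log2 fold change of -1.89 ± 0.31 with adjusted p = 1.88e-05. The adjusted p was 0.0269 in the fit of the liver libraries and 0.0661 in that of the 8 compared libraries, at log2 fold changes of -1.86 and -1.85. In Y130A liver it drew 40, 47, 13 and 41 counts against 86, 94, 52 and 63 in wild type, and its CPM were again lower without overlap, at 1.14 ± 0.484 against 2.27 ± 0.359. This gave a log2 fold change of -0.99 ± 0.23 (adjusted p = 0.0485), the 1 call in Y130A liver, where 0.0651% of all genes were called lower. The adjusted p was 0.0533 with no filter on low counts, 0.0752 without the 2 squamous libraries and 0.9999 and 0.9987 in the fits of the liver and of the compared libraries, while DESeq2 gave 0.000662. The 2 effects were not distinguished by the interaction term. Over the 8 fits that each left out 1 library the adjusted p of the Y130A call ranged from 0.0235 to 0.141, and the call was lost without Y130A liver replicate 1 or 3 or without wild-type replicate 1, 3 or 4. The smallest log2 fold change, -0.74, came without Y130A replicate 3, its lowest library.

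Pcdhb14 drew 8, 12, 11 and 15 counts in wild-type livers and 8, 3, 0 and 0 in S226A livers, so only 1 mutant library reached the wild-type range, and its log2 fold change was -2.17 ± 0.48 (adjusted p = 0.00149). In Y130A liver it drew 22, 10, 9 and 6 counts against 12, 24, 10 and 6, and its level was 0.375 ± 0.193 against 0.389 ± 0.179 CPM. The difference between the mutant effects was -2.11 ± 0.62 (adjusted p = 0.0304), the 1 call among members where 2.71% of all genes were called in that direction. With litter as a block this difference had adjusted p = 0.0673, and without the 2 squamous libraries 0.153.

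Pcdha7, an alternate alpha member, drew 4, 2, 9 and 2 counts in wild-type livers and 1 count in all in the S226A livers. Pcdhb2 drew 5 and 4 counts in 2 wild-type livers and none in the others or in any S226A liver. At these counts both calls say little about size, and no fold is given. Pcdhga6 measured 1.45 ± 0.571 against 2.75 ± 1.12 CPM, with overlap, at a log2 fold change of -0.93 ± 0.30 (adjusted p = 0.0387). Pcdhga1 (-1.34 ± 0.44, adjusted p = 0.0394) and Pcdhb16 (-1.36 ± 0.47, adjusted p = 0.0490) also overlapped, and both calls were lost with litter as a block. When the 2 squamous libraries were left out, Pcdhb14, Pcdhb22 and Pcdha7 kept their calls and the other 4 lost them.

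Summed over the cluster, beta transcripts were lower in S226A liver without overlap, from 3.97 to 6.37 CPM in mutants and from 7.55 to 10.7 CPM in wild types. Without Pcdhb22 the other 21 beta members summed to 4.20 ± 0.747 CPM against 6.56 ± 1.87, and their ranges overlapped. The gamma sum was 67.4 ± 6.24 against 81.4 ± 6.09 CPM, with overlap, and the alpha sum 0.247 ± 0.251 against 0.745 ± 0.373 CPM. S226A liver also differed in its cell markers. The 8 macrophage markers summed to between 243.8 and 319.4 CPM in S226A and between 713.4 and 807.7 CPM in wild-type livers, the neutrophil markers to between 7664 and 8214 against 2609 to 3094 CPM, and the endothelial markers to between 375.3 and 455.9 against 492.1 to 542.4 CPM. Hepatocyte markers were lower too, at 145117 to 169606 against 173304 to 178332 CPM. In Y130A liver the macrophage (769.6 to 849.1 against 799.3 to 905.3 CPM) and endothelial sums overlapped with wild type. The part of these cells in the protocadherin values was not tested.

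**Figure D2:**
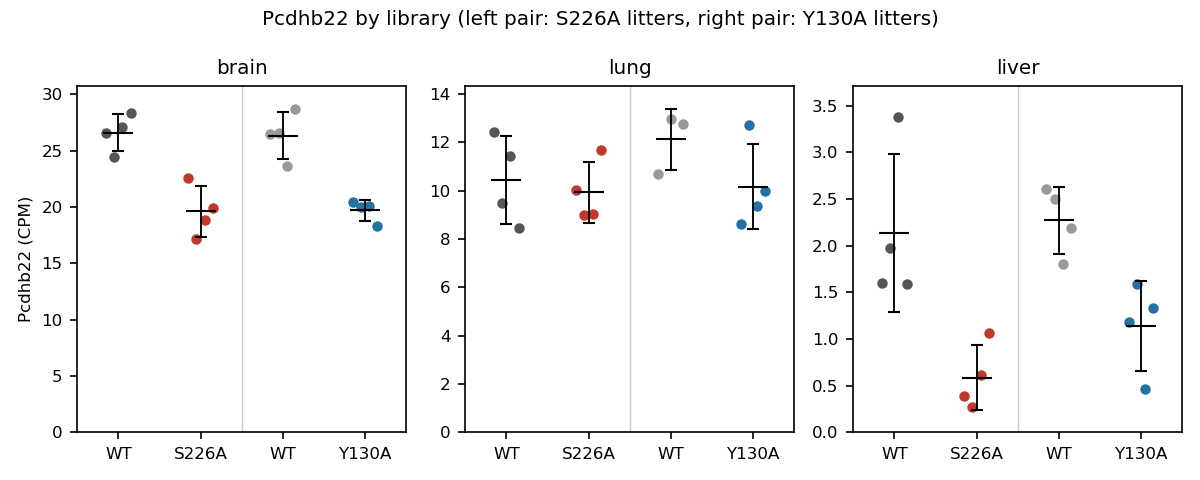
Pcdhb22 in every library, in CPM, by tissue and group. Points are libraries and bars the mean and SD of 3 or 4 libraries. In brain and liver all mutant libraries lie below all wild-type libraries of their own litters in both lines, and in lung the ranges overlap.

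In lung no member was called in either mutant, where 1.88% of all genes were called in S226A and 0.0178% in Y130A. An unadjusted p below 0.05 was reached by 8 members in S226A (16.2% of all genes) and 4 in Y130A (2.92%). DESeq2 called 1 member, Pcdhb21, in S226A lung. Of the beta members 20 of 22 were below 0 in Y130A lung, where 50.9% of all genes were, with a median of -0.13. The Y130A beta sum ranged from 66.5 to 74.9 CPM in mutants and from 77.2 to 85.1 CPM in 3 wild types, without overlap. Without Pcdhb22 the ranges overlapped, at 57.1 to 66.2 against 64.2 to 72.4 CPM. In S226A lung the beta sum was 78.0 ± 5.21 against 86.0 ± 5.60 CPM and overlapped in 1 library of each group, which measured 81.3 CPM. Pcdhb22 measured 9.93 ± 1.26 against 10.4 ± 1.81 CPM in S226A and 10.2 ± 1.78 against 12.1 ± 1.26 CPM in Y130A lung. Of the gamma members 20 of 21 were below 0 in S226A lung, where 48% of all genes were, at a median log2 fold change of -0.23, and wild-type replicates 3 and 4 of that comparison were high in this cluster. The paper reporting these data names 1 wild-type lung of this comparison a possible outlier, which appears to be replicate 4. S226A lungs differed in macrophage markers (114.9 to 147.6 against 159.8 to 207.01 CPM) and neutrophil markers (117.6 to 165.8 against 28.9 to 68.8 CPM), both without overlap, and their part in the lung values was not tested.

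In brain, where every cluster was deeply covered, no member passed the threshold in the fit of all libraries in either mutant (0.243% of all genes were called in S226A and 0.00592% in Y130A), and 1 member, Pcdhb22, had an unadjusted p below 0.05 in each (2.27% and 2.22% of all genes). DESeq2 called 0 members in either. The beta cluster nevertheless lay to one side. All 22 beta members were below 0 in S226A brain, where 47.8% of all genes were, with a median log2 fold change of -0.30 beside 0.00 over all genes. In 9 of the 22 every S226A library lay below every wild-type library, where 1.24% of all genes did so. In Y130A brain 20 of 22 were below 0 (50.5% of all genes), with a median of -0.13, and 1 of 22 did not overlap (2.09% of all genes). The beta members share libraries and are not independent, so these counts are a description only. In S226A brain 11 of 14 alpha and 11 of 21 gamma members were below 0, at medians of -0.11 and -0.01. In Y130A brain 3 of 14 alpha and 3 of 21 gamma members were, at medians of 0.16 and 0.10.

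**Figure D3:**
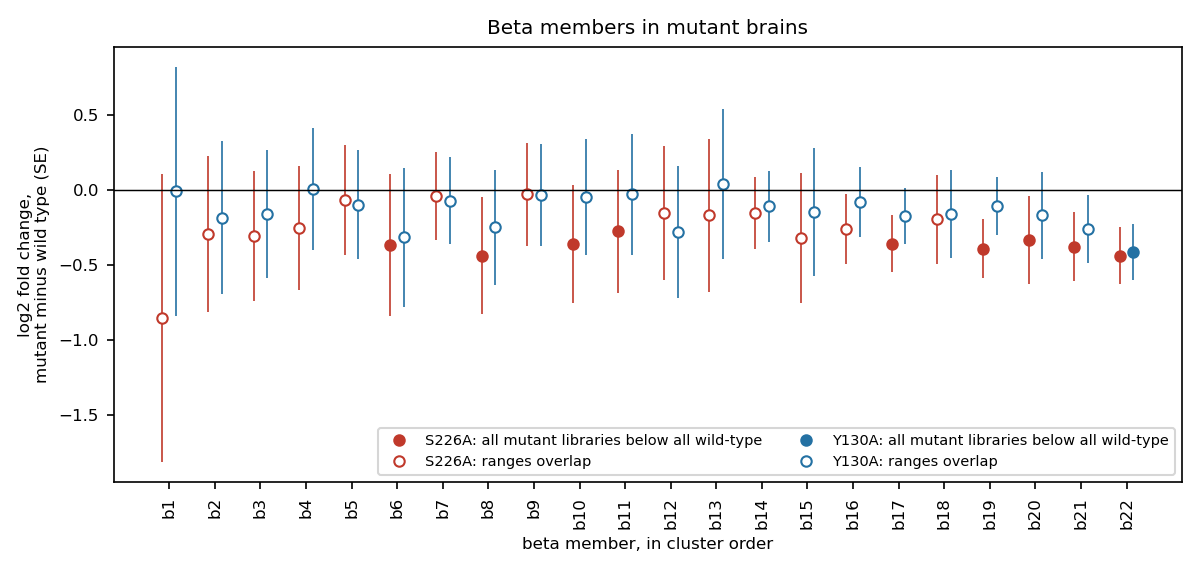
Log2 fold change of each beta member in S226A and Y130A brain against wild-type littermates, with SE, in cluster order. Filled points mark members whose 4 mutant libraries all lie below their 4 wild-type libraries. All 22 S226A points are below 0, 9 of them filled, and Pcdhb22 is the 1 filled Y130A point.

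The beta sum was 251.8, 233.5, 237.0 and 251.1 CPM in S226A brains and 303.8, 277.8, 287.0 and 316.7 CPM in their wild types. The groups did not overlap, and the mutant mean was lower by 17.9% (log2 ratio -0.28). Without any 1 library the log2 ratio ranged from -0.31 to -0.25. In Y130A brains the sum was 271.1, 258.6, 246.6 and 257.6 CPM against 291.9, 281.7, 263.6 and 311.6 CPM, which overlapped in 1 library of each group, although the mutant was the lower one in all 4 litters. That mean changed by -10.01%, but the median over members of log2(CPM + 1) differed by only -0.06. The alpha sum was 187.8 ± 4.50 against 195.1 ± 8.51 CPM in S226A and 178.9 ± 12.8 against 162.6 ± 15.9 CPM in Y130A brain. The gamma sum was 482.8 ± 12.6 against 487.9 ± 27.5 CPM and 452.7 ± 23.8 against 422.3 ± 31.7 CPM, each with overlap. When Y130A-litter wild type replicate 3 was left out, the log2 ratio in Y130A brain moved from 0.14 to 0.069 for the alpha and from 0.10 to 0.049 for the gamma sum.

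**Figure D4:**
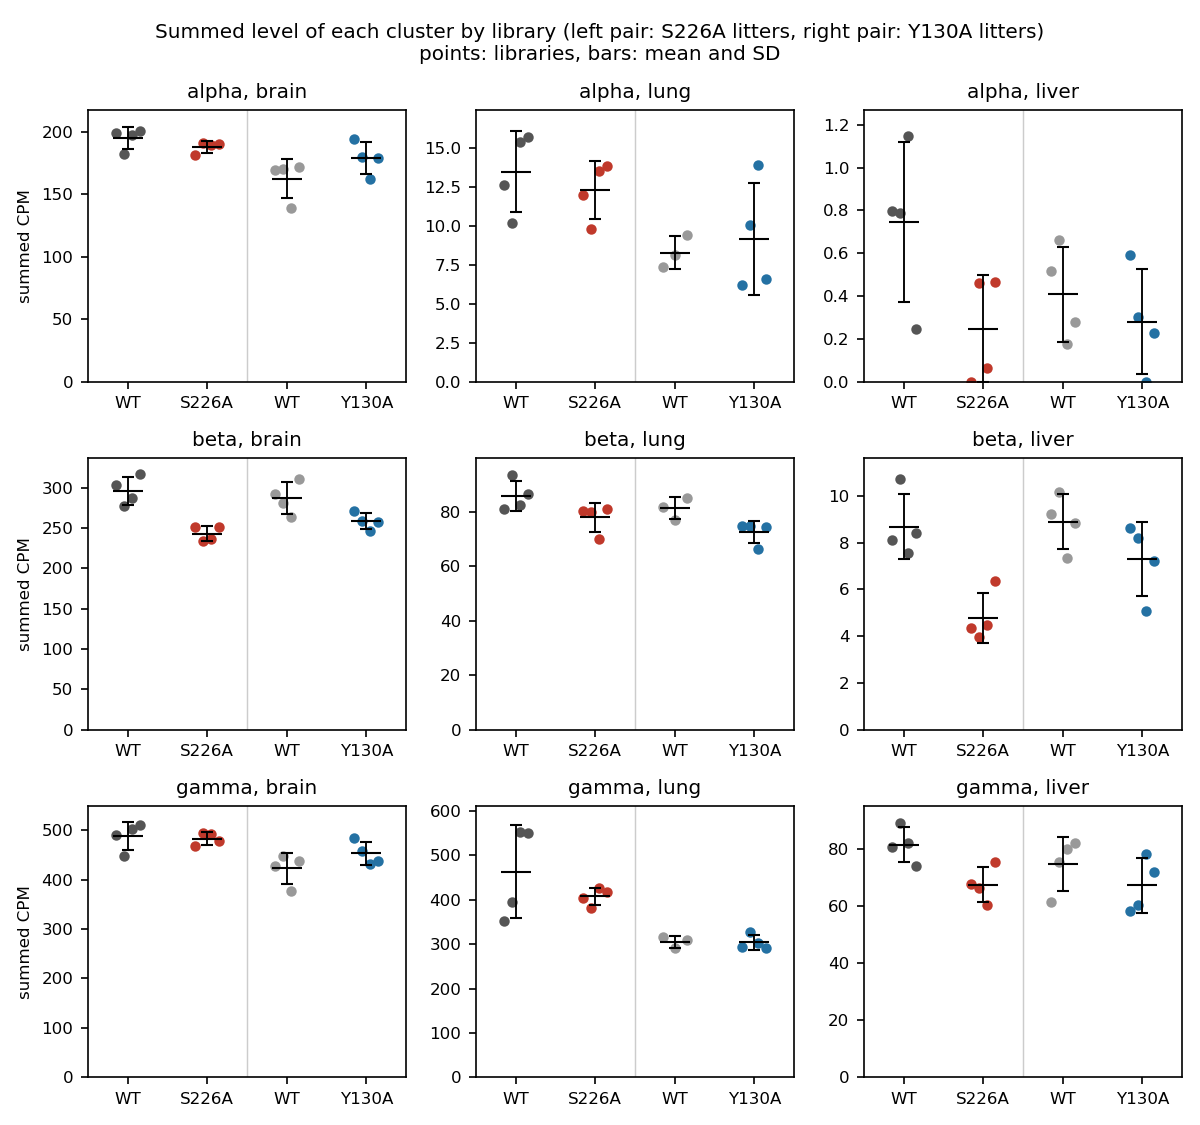
Summed CPM of each cluster in every library, by tissue. In each panel the left pair is S226A litters and the right pair Y130A litters, points are libraries, and bars are the mean and SD of 3 or 4 libraries. The beta sums lie apart from wild type in S226A brain and liver and in Y130A lung, and the gamma sums of 2 wild-type lungs of S226A litters stand above the rest.

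Of the 9 beta members lower without overlap in S226A brain, 5 were among the 6 at the downstream end of the array (Pcdhb17, Pcdhb19, Pcdhb20, Pcdhb21 and Pcdhb22), and 4 were among the other 16 (Pcdhb6, Pcdhb8, Pcdhb10 and Pcdhb11). The division into 6 and 16 was made after the values were seen. Pcdhb22 measured 26.5, 24.4, 27.1 and 28.3 CPM in wild-type and 22.5, 17.1, 18.8 and 19.9 CPM in S226A brains. In the Y130A litters it measured 26.4, 26.6, 23.7 and 28.7 CPM in wild-type and 20.4, 20.001, 20.1 and 18.3 CPM in mutant brains. It was lower in every mutant library of both lines, by log2 fold changes of -0.44 ± 0.19 and -0.42 ± 0.19. Pcdhb19 was lower without overlap in S226A (28.3 ± 0.561 against 37.2 ± 2.17 CPM), but measured 33.8 ± 2.61 against 36.5 ± 3.17 CPM in Y130A brain. The 1 other member lower without overlap in both brains was Pcdha2, at 8.18 ± 0.752 against 10.9 ± 1.06 CPM in S226A and 7.87 ± 0.506 against 9.52 ± 0.650 CPM in Y130A. The share of all genes lower without overlap in both brains was not counted, so these members are given as a description only.

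The brain calls differed between fits, whereas the log2 fold changes hardly moved. The fit of all libraries holds 1 spread per member over the 3 tissues, and the median biological coefficient of variation of beta members was 19.8%, against 9.93% in a fit of the 16 brain libraries. That second fit was added after the data were seen. It also differs in its libraries and in the genes tested, and the cause of the change in calls was not tested. In it Pcdhb22 (log2 fold change -0.44 ± 0.08, adjusted p = 0.00819), Pcdhb19 (-0.39 ± 0.07, adjusted p = 0.0139) and Pcdhb17 (-0.36 ± 0.07, adjusted p = 0.0362) were called lower in S226A brain, where 0.328% of all genes were called. Pcdhb22 (-0.41 ± 0.07, adjusted p = 0.0405) was called in Y130A brain (0.0515%). Summed neuron markers ranged from 7501 to 8068 CPM in S226A and from 7471 to 7954 CPM in wild-type brains, and progenitor and glial markers overlapped too. Macrophage markers ranged from 50.7 to 62.2 CPM in S226A against 81.4 to 90.5 CPM in wild-type brains and neutrophil markers from 6.26 to 12.96 against 3.59 to 5.24 CPM, without overlap. In Y130A litters the macrophage sums overlapped, at 82.7 to 88.4 against 80.8 to 91.0 CPM. Their part in the beta values was not tested.

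The wild types of the litter sets were also compared with each other, and in lung they differed in the gamma cluster. Between wild-type lungs, 14 members were called lower in Y130A than in S226A litters, where 10.8% of all genes were, and 0 higher (9.24%). Of the 14, 12 were gamma members, all 21 of which were below 0 (49.4% of all genes) at a median log2 fold change of -0.62, and 2 were alpha members, Pcdha1 and Pcdha9, with few counts. The gamma sum was 351.6, 394.6, 553.3 and 550.7 CPM in wild-type lungs of S226A litters and 316.0, 290.0 and 308.3 CPM in those of Y130A litters. Replicates 3 and 4 of the former stood above the other wild types and above all mutant lungs, whose sums ran from 382.2 to 426.5 CPM in S226A and from 290.1 to 327.8 CPM in Y130A. Replicate 4, embryo 9 of litter 2970, appears to be the lung that the paper reporting these data names a possible outlier for transposable elements. The litter number printed there differs. With 1 library left out, the Pcdhgc3 log2 fold change between these wild types ranged from -0.53 (without S226A-litter replicate 1) to -0.30 (without S226A-litter replicate 4).

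**Figure D5:**
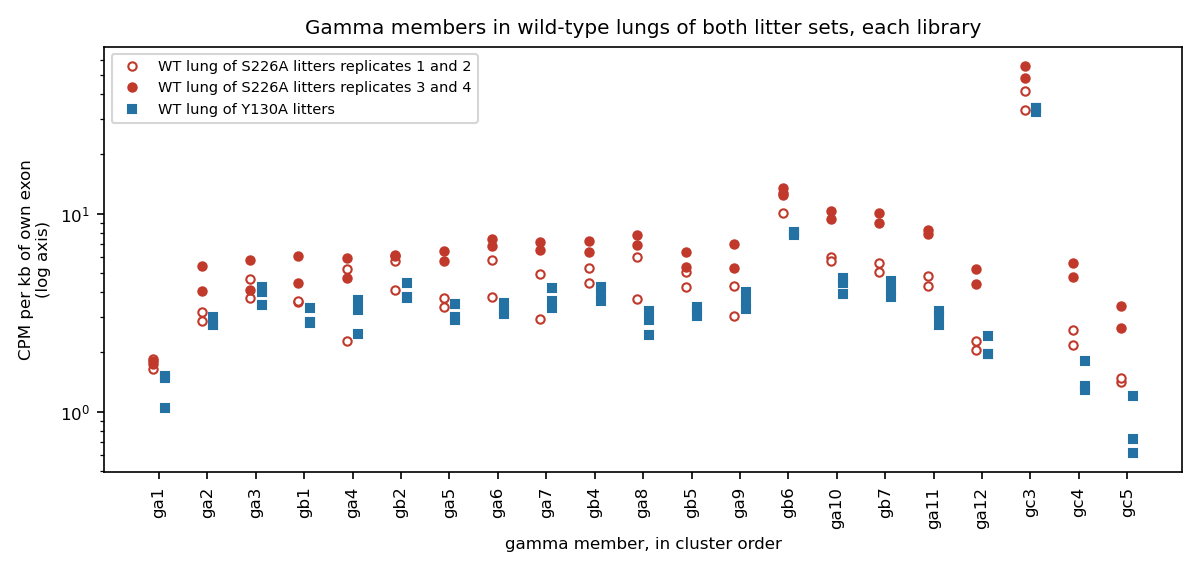
Each gamma member in the 7 wild-type lung libraries, in CPM per kb of own exon on a log axis. Filled circles are replicates 3 and 4 of the S226A litters, open circles replicates 1 and 2, and squares the 3 libraries of the Y130A litters. The filled circles lie highest for most of the members.

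The largest differences among gamma members were those of Pcdhgc5 (log2 fold change -1.40 ± 0.37, adjusted p = 0.00516) and Pcdhgc4 (-1.35 ± 0.23, adjusted p = 5.31e-05). Pcdhga8 (-1.10 ± 0.22), Pcdhga11 (-1.08 ± 0.25), Pcdhga6 (-0.86 ± 0.26) and Pcdhga10 (-0.85 ± 0.25) followed. Pcdhgc3 measured 113.4 ± 3.11 against 151.3 ± 32.2 CPM, with overlap (-0.42 ± 0.11). Endothelial markers were lower in the Y130A litters too, at 1853 to 2118 against 2239 to 2515 CPM, as were macrophage markers, at 151.4 to 156.7 against 159.8 to 207.01 CPM, whereas epithelial and fibroblast sums overlapped. The part of these cells was not tested, and litter set, depth and any other difference between the collections cannot be told apart. Thinned to the S226A depth, 13 members were called. In a fit of the lung libraries 12 gamma members were called, of 15.5% of all genes, 11 of them among the 14. Fitted on the 7 libraries alone, 3 were called, and without Y130A-litter wild type replicate 2 the count was 8.

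Between wild-type livers, 2 members were called higher in Y130A litters (background 9.11%) and 6 lower (3.97%). Pcdhb19 (0.967 ± 0.275 against 0.356 ± 0.303 CPM) and Pcdhb21 were higher and Pcdhgc4 (1.81 ± 0.395 against 3.46 ± 1.23 CPM) was lower. The others, Pcdha7, Pcdhb2, Pcdhb6, Pcdhb12 and Pcdhb13, drew at most 2 counts in any Y130A-litter library. The call of Pcdhb12 rested on the 20 counts of S226A-litter replicate 1, without which its log2 fold change turned to 2.84 and was not called. All 8 calls were lost under stringent criteria, in the fit of the liver libraries and in that of the compared libraries. Hepatocyte markers (183210 to 213767 against 173304 to 178332 CPM) and neutrophil markers (3180 to 3971 against 2609 to 3094 CPM) were higher in these livers of Y130A litters without overlap, and their part was not tested. Between wild-type brains 0 members were called in the fit of all libraries (5.98% of all genes), 4 had an unadjusted p below 0.05 (18.4%), and DESeq2 called 3. In the fit of the brain libraries 22 were called lower in Y130A litters and 0 higher, where 27.3% of all genes were called in either direction. They included Pcdha8 (-0.80 ± 0.16), Pcdhac1 (-0.79 ± 0.14) and Pcdha10 (-0.70 ± 0.15), with 8 alpha, 1 beta and 13 gamma members in all. The beta sums of wild-type brains were alike by contrast, at 296.3 ± 17.4 CPM in S226A and 287.2 ± 20.1 CPM in Y130A litters. Neuron markers were higher in wild-type brains of Y130A litters without overlap (8374 to 8950 against 7471 to 7954 CPM), as were markers of peripheral nerve and neuroendocrine cells (293.6 to 345.02 against 220.5 to 264.4 CPM), and their part was not tested.

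No member differed between the mutant effects in lung (0.308% of all genes called) or brain (0.0829%), where an unadjusted p below 0.05 was reached by 3 and 0 members (9.8% and 2.29% of all genes). DESeq2 likewise called 0 members in either tissue.

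Few genes that act on the clusters were called. Of 26 regulators of promoter choice and silencing, 0 were called in either mutant in liver or brain or in Y130A lung. In S226A lung, where 0.852% of all genes were called higher, 2 rose, Smc3, a cohesin subunit (log2 fold change 0.40 ± 0.09, adjusted p = 0.00775), and Dnmt1, the maintenance DNA methyltransferase (0.28 ± 0.08, adjusted p = 0.0449). Both were also called higher in wild-type lungs of Y130A than of S226A litters (0.49 ± 0.09 and 0.24 ± 0.08), and Smc3 measured 108.9 ± 17.5 CPM in wild-type lungs of S226A litters, 144.1 ± 6.84 in S226A lungs and 153.1 ± 5.87 in wild-type lungs of Y130A litters. Of 8 genes for Daxx and its partners, Atrx and the H3.3 genes among them, 0 were called in any of the 6 mutant comparisons. These are RNA levels only. The paper reporting these data found Daxx protein higher than wild type in Y130A and lower in S226A, in E18.5 lung and most clearly in embryonic fibroblasts. Of 18 genes for partners of the protocadherin proteins, 5 fell in S226A liver, where 5.54% of all genes were called lower. The largest fall was that of Marcks, which binds membranes and actin (-0.70 ± 0.07), and Fyn, Adam10, Ptk2 and Nckap1 fell by less, while Cyfip2 rose (0.45 ± 0.11). Of 18 genes beside and between the clusters, 1 rose in S226A liver (background 6.14%), Arap3 (0.31 ± 0.10, adjusted p = 0.0433), and 0 were called in the other 5 comparisons.

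Of the 12 non-clustered protocadherins, which are scattered through the genome, Pcdh11x rose in both mutant livers, to 5.09 ± 2.23 from 0.717 ± 0.766 CPM in S226A and to 3.48 ± 0.993 from 0.711 ± 0.351 CPM in Y130A (adjusted p = 2.81e-06 and 0.000213), where 6.14% and 0.207% of all genes were called higher. Pcdh20 fell in S226A liver (-1.39 ± 0.42), where 5.54% of all genes were called lower, and Pcdh9 rose in Y130A liver (0.83 ± 0.19). In lung or brain of either mutant 0 of the 12 were called.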

How the data were processed

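Bulk RNA-seq libraries (n = 47) were analysed from the table of raw read counts per gene that the authors deposited. The submitters' notes and methods name FastQC 0.11.5, Trim Galore 0.6.5 and STAR 2.6.0b on GRCm38, with gene counting by STAR. Reads that match several genes are not counted, so reads in the shared constant exons should be missing from alpha and gamma members. The GENCODE M21 annotation gave symbols for 20424 of 20456 genes, exon lengths and positions. One gene that it calls Pcdha11 in duplicate, ENSMUSG00000007440.10, was named Pcdha10 after the RefSeq start of that gene. No column was left unused.

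Counts were fitted with edgeR 4.0.16 (R 4.3.3), quasi-likelihood, on all 47 libraries with 1 coefficient per group and TMM factors, after filterByExpr (minimum count 10, minimum total 15). The filter kept 16892 genes and all 57 members, many of them only through brain. A gene was called at a Benjamini-Hochberg adjusted p below 0.05 over all genes. CPM are TMM-scaled. The test was checked on simulated data. Members and gene lists were chosen with earlier results of these data known. The list of protein partners is given without 1 result. Named members were the C-type members, the 3 highest and 2 lowest of each cluster and tissue, all called outside tissue comparisons (up to 8 per comparison), the extremes of each tissue comparison (3 each way), and those lower or higher without overlap in both mutants. The litter in the sample titles pairs libraries: 18 of 23 littermate pairs had deviations correlated above 0.1, against 5 of 69 other pairs. Alternatives were DESeq2 1.42.0, RLE factors, no filter, the compared libraries alone, a litter block, thinning, each library left out, and, added after seeing the data, fits by tissue and without the 2 squamous livers.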

Additional observations from a re-analysis of the deposited data

Results flagged for a closer look

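Of 142 groups of 4 values examined, 18 held 1 value farther from the other 3 than Dixon's 95% limit allows. Chance flags about 1 in 20 groups, but this rate does not apply to the 7 groups below in which 3 of the 4 libraries were at 0 (Pcdha7 in S226A liver and in wild-type liver of Y130A litters, Pcdhb2, Pcdhb6 and the 3 of Pcdhb12), since any count in the other library passes. Among the cluster totals, the lowest library stood apart for alpha in wild-type brain of Y130A litters (138.8 CPM), for beta in S226A lung (70.2 CPM) and for beta in Y130A lung (66.5 CPM). The last 2 stood apart on the low side, and the 3 other libraries of Y130A lung lay below their wild types as well.

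In brain 1 member value was set apart, that of Pcdhb17 in wild-type replicate 1 of S226A litters (37.4 CPM), and the other wild types also lay above every S226A brain. The 14 remaining values came from liver at low counts. In S226A liver they were Pcdha7 at 0.0619, Pcdhb12 at 0.277, Pcdhb13 at 0.557, Pcdhb19 at 1.59 and Pcdhgc4 at 3.69 CPM. In Y130A liver they were Pcdhb2 at 0.0977, Pcdhb12 at 0.0326 and Pcdhgc4 at 2.44 CPM. In wild-type liver of S226A litters they were Pcdhb12 at 1.23 and Pcdhb13 at 0.797 CPM, and in that of Y130A litters Pcdha7 at 0.0265, Pcdhb6 at 0.0347, Pcdhb16 at 0.555 and Pcdhgc4 at 2.40 CPM.

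In the fit of all libraries Pcdhb14 was the 1 member called for a difference between the S226A and Y130A effects in liver, by -2.11 on the log2 scale (edgeR quasi-likelihood test, adjusted p = 0.0304). The adjusted p was 0.0673 with litter as a block, 0.153 without the 2 squamous livers and 0.497 in the fit of the liver libraries, it ranged from 0.000584 to 0.128 when 1 library was left out, and DESeq2 called 9 members.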

How the results depend on the processing

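Calls in liver depended on the fit. In S226A liver 7 members became 2 under stringent criteria (adjusted p below 0.01, log2 fold change beyond 1, SE below 1), 0 with the 8 compared libraries alone, 1 with the liver libraries and 13 with DESeq2. The 1 call in Y130A liver became 0 under stringent criteria, with no filter, with the compared libraries or with the liver libraries, and 3 with DESeq2. The 8 calls between wild-type livers became 0 in the stringent, compared-library and liver fits. The 1 liver interaction became 0 in those 3 fits, with thinned Y130A litters and without the squamous livers, 2 with RLE factors and 9 with DESeq2, and with litter as a replicate block it was 1 other member. In S226A lung 0 became 1 with DESeq2. In brain 0 became 2 (compared libraries) or 3 (brain libraries) in S226A and 1 (brain libraries) in Y130A. Between wild-type brains 0 became 20, 22 and, with DESeq2, 3. The 14 calls between wild-type lungs became 4 under stringent criteria and 3 with the compared libraries. With litter as a replicate block 5 members were called in S226A liver, and the counts of the other mutant comparisons and of the interactions stayed as they were. The causes of these changes were not tested.

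Leaving out 1 library gave 4 to 13 calls in S226A liver, 0 to 1 in either of S226A lung or Y130A liver, 5 to 9 between wild-type livers (lowest without S226A-litter replicate 1), 8 to 18 between wild-type lungs and 0 to 5 for the liver interaction. The tissue comparisons stayed at 56 to 57 (brain and liver), 45 to 49 (brain and lung) and 50 to 51 (lung and liver). Pcdhb12 between wild-type livers ranged from -4.53 to 2.84 on the log2 scale and reversed without S226A-litter replicate 1.

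As the median over members of log2(CPM + 1), the difference was 0 for alpha in S226A liver, -0.12 and -0.019 for beta in S226A and Y130A liver, -0.058 for beta in Y130A brain and 0.095 for gamma in Y130A lung. Without the C-type members the alpha log2 ratio was -3.06 (S226A) and -2.79 (Y130A) in liver, and -0.43 in lung of S226A. The liver ratios rest on alternate members that drew few or no counts in any mutant liver, so they say little about size. The median spread between libraries was 10.2% (alpha), 9.93% (beta) and 9.76% (gamma) in the brain fit, and as the coefficient of variation within wild-type brain of S226A litters 7.96%, 10.9% and 10.7%. Most alpha and beta members drew under 10 counts in liver, so changes there were not detectable at this depth unless large.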
